A study of Mus musculus with 12 samples.

Results

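Actin, tropomyosin and cofilin build and turn over the actin filament, and 9 genes of these families were described in mouse tibialis anterior (TA) muscle with and without the human long noncoding RNA *FRAIL1*. The genes were *Acta1*, *Actb*, *Actg1*, *Tpm1*, *Tpm2*, *Tpm3*, *Tpm4*, *Cfl1* and *Cfl2*, chosen by name and found by their NCBI gene identifiers as 9 of the 27179 genes in the count table. The RNA-seq series held 12 TA muscles from 6 wild-type male C57BL/6N mice, young adults by the study's methods. In each mouse 1 TA was electroporated with 10 μg of empty pcDNA3 plasmid (Control) and the opposite TA with 10 μg of a plasmid encoding full-length human *FRAIL1* (*FRAIL1*), and both were excised on day 7. Electroporation and plasmid were thus shared by both groups. The plasmid's CMV promoter is active in any cell that takes up the DNA, and poly(A)+ RNA was read from the whole muscle, which also holds fibers that took up no plasmid and the cells between fibers. The question was whether forced *FRAIL1* expression altered these mRNAs, and whether the isoforms of the sarcomere and those of the cytoskeleton differed in this.

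The thin filament of the sarcomere is a polymer of skeletal α-actin, the product of *Acta1*, with tropomyosin lying along its length to control access of myosin. Fast fibers mostly use the tropomyosins of *Tpm1* and *Tpm2*, and slow fibers use a product of *Tpm3* in place of that of *Tpm1*. β-actin (*Actb*) and γ-actin (*Actg1*) form the filaments below the membrane of nearly every cell, where short tropomyosins from *Tpm4*, and from other promoters of *Tpm1* and *Tpm3*, are found. Cofilins sever filaments and free actin monomers, with *Cfl2* as the form of mature muscle and *Cfl1* as that of other cells. *Acta1*, *Tpm1*, *Tpm2*, *Tpm3* and *Cfl2* are called sarcomeric or muscle members below, and *Actb*, *Actg1*, *Tpm4* and *Cfl1* cytoskeletal members.

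The actin genes are close relatives. The complete coding sequences of *Actb* and *Actg1* were 88.7% identical in GENCODE M21, with 128 differences over 1128 bases and no identical run longer than 62 bases. *Acta1* was 84.8% identical to *Actb* and 86.2% identical to *Actc1*, the cardiac actin gene. The cofilins were further apart, at 71.5% identity over 501 bases. The first 60 coding bases of each nonmuscle actin are shown from the start codon, with the 9 bases that differ in capitals:
*Actb*: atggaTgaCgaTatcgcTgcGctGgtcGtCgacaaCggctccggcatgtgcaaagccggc
*Actg1*: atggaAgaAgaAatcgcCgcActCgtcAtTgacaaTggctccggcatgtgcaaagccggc

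Serum response factor, which binds the sequence element named the CArG box, is a known regulator of actin genes. The RefSeq promoter table (GRCm38.p6) held 8 of the 9 members and no entry for *Actb*, whose promoter was thus not searched. Of these 8, 2 had a CArG box on either strand within 250 bases upstream of a start site, against 482 of all 32851 promoters (1.47%). They were *Acta1*, with the box 73 to 64 bases upstream, and *Actg1*, with it 90 to 81 bases upstream. *Actc1* also had one, 47 to 38 bases upstream. A match is a description of the letters and not a measured site. The windows are shown because the values of these 3 genes are set side by side below; capitals mark the box, and all lie on the minus strand:
*Acta1*, chr8:123894819-123894868: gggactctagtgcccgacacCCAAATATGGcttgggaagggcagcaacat
*Actg1*, chr11:120348556-120348605: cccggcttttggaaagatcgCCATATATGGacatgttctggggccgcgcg
*Actc1*, chr2:114052893-114052942: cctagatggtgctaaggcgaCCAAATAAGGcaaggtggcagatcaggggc

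The libraries held 44848322 to 60527385 counts, and 15502 genes passed the filter on low counts, all 9 members among them. The lowest raw count of any member was 1842, so counting error was small beside the spread between muscles. The muscle *FRAIL1* 5 stood apart, with a score of 60.7 on the first principal component against 26.4 for the next muscle, and values without it are given where it matters. The fast-fiber markers that define this tissue were high in every muscle, at a summed level of 121900 to 196200 CPM (normalised read counts scaled to a common library size).

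Per length of merged exons (FPKM), *Acta1* was the highest member and *Tpm3* the lowest, though the place of *Tpm3* depended on the length used. In Control muscles *Acta1* stood at 22480 ± 1830 FPKM (SD, n = 6), 6.98 times the next gene, *Tpm2*, at 3222 ± 255. *Tpm1* followed at 2248 ± 141. The cardiac actin *Actc1*, which is no member, stood at 508 ± 153. *Actb* was at 197 ± 18.2, *Cfl2* at 104 ± 11.5, *Cfl1* at 38.7 ± 4.97 and *Actg1* at 29.7 ± 4.46. *Tpm4* at 20.5 ± 1.08 and *Tpm3* at 9.09 ± 0.761 closed the order. Among the 9 members, only *Cfl1* and *Actg1* overlapped in Control muscles. The order was the same in *FRAIL1* muscles, where the overlapping pair of members was *Actg1* and *Tpm4*. Over the length of 1 coding transcript per gene in place of merged exons, the order of *Tpm1* and *Tpm2* turned. In Control muscles the mean of *Tpm3* passed those of *Cfl1*, *Actg1* and *Tpm4*, and its range overlapped those of *Cfl1* and *Actg1*. In *FRAIL1* muscles it stayed below that of *Cfl1* (53.3 against 54.5 FPKM). *Tpm1* (1797 bases) then stood at 8112 ± 508 and *Tpm2* (2175 bases) at 4309 ± 341 FPKM in Control muscles. *Tpm3* (1139 bases) stood at 48.5 ± 4.06, and *Tpm4* was the lowest member at 21.2 ± 1.11. The annotation lists 16 complete coding transcripts of *Tpm1*, with coding sequences of 738 to 981 bases. Counts per gene do not separate the sarcomeric from the cytoskeletal products of *Tpm1* or *Tpm3*.

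**Figure D1:**
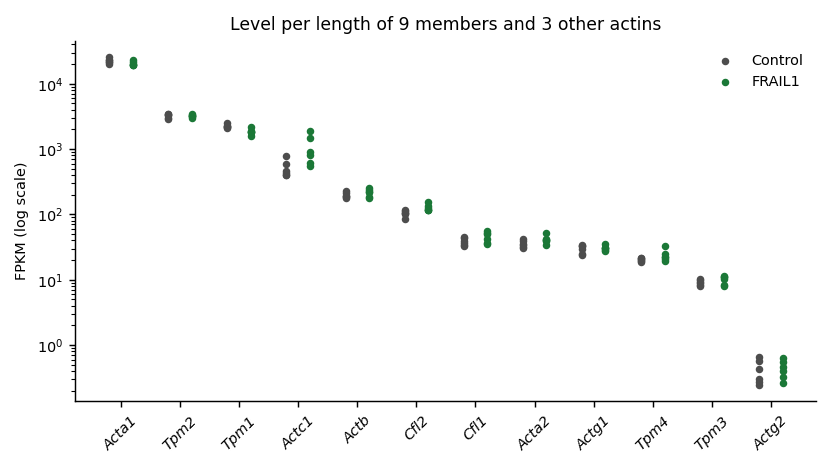
Level of each gene per length (FPKM of merged exons, log scale) in the 6 Control (grey) and 6 *FRAIL1* (green) TA muscles, with 1 point per muscle, for the 9 members and the actins *Actc1*, *Acta2* and *Actg2*. *Acta1* lay near 22480 FPKM and *Actg2* near 0.416 FPKM in Control muscles, and the order was the same in both groups.

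None of the 9 members passed the test of *FRAIL1* against Control (0 of 9 at an adjusted p under 0.05, edgeR quasi-likelihood test with Benjamini-Hochberg adjustment over all genes), where 6.28% of all genes tested did (4.43% higher and 1.85% lower). At an unadjusted p under 0.05 the count was 2 of 9, *Tpm1* and *Cfl2*, against 27.7% of all genes. Other tools called 1 (limma voom, *Tpm1*) or 2 (DESeq2, *Tpm1* and *Cfl2*), where they called 11.8% and 15.0% of all genes. With the mouse as a block, edgeR called 1 member, *Cfl1*, as higher, where it called 14.1% of all genes (7.48% higher and 6.62% lower). DESeq2 with the block called 3, *Tpm1*, *Cfl1* and *Cfl2*, beside 20.3% of all genes. The fitted log2 fold change was above 0 for 7 members and below 0 for 2, with a median of 0.12 beside 0.0096 over all genes. The 4 cytoskeletal members all had values above 0 (0.028 to 0.22, median 0.17), and the 5 sarcomeric or muscle members ran from −0.28 to 0.29 (median 0.012). Without *FRAIL1* 5 these medians were 0.097 and 0.015. In no member did the 2 groups of muscles separate without overlap, which 4.88% of all genes did (3.12% higher and 1.77% lower). At least 5 of 6 mice were higher for 3 members, *Tpm4*, *Cfl1* and *Cfl2*, as for 25.5% of all genes, and at least 5 of 6 were lower for *Acta1* and *Tpm1*, as for 24.3%. The 9 genes together took 5.67 ± 0.338% of raw counts in Control and 5.69 ± 0.263% in *FRAIL1* muscles (SD, n = 6 each). With TMM scaling their summed level was 54120 to 66680 CPM (median 59160) in Control muscles. In *FRAIL1* muscles it was 50470 to 60750 CPM (median 52690), with 0 of 6 mice higher. In RNA from whole muscle, fewer cells of a type and less RNA per cell cannot be told apart.

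**Figure D2:**
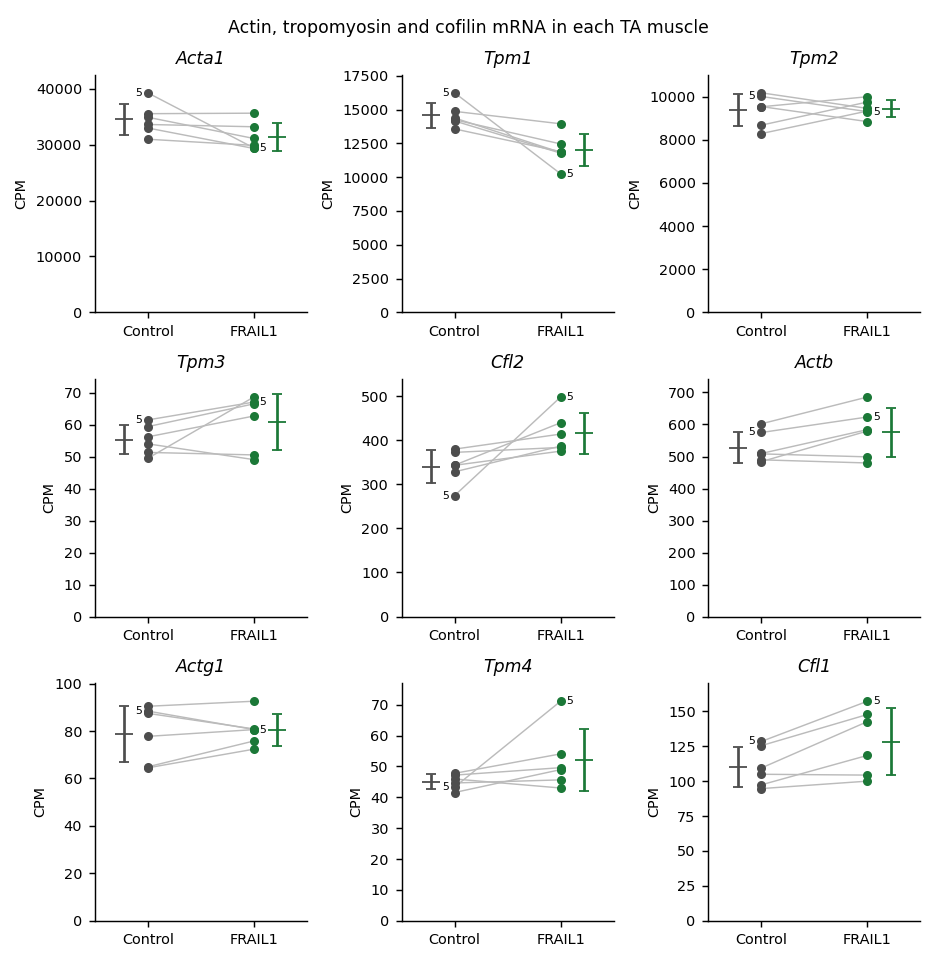
Normalised read counts (CPM, y axis from 0) of the 9 members in each muscle, with grey lines joining the Control and *FRAIL1* muscles of 1 number, bars at the mean ± SD (n = 6) and the muscles numbered 5 marked. In 6 of 6 mice *Tpm1* had its lower value and *Cfl2* its higher value on the *FRAIL1* side, and the groups overlapped in every panel.

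*Tpm1*, the fast α-tropomyosin gene (chromosome 9, 67022590 to 67049672), had its lower value on the *FRAIL1* side in 6 of 6 mice but did not reach the threshold. Control muscles held a lowest value of 13570, a median of 14310 and a highest of 16240 CPM. *FRAIL1* muscles held 10250, 11860 and 13950 CPM. The groups overlapped by 1 muscle of each, since *FRAIL1* 3 was above Control 4, and *FRAIL1* 5 was the lowest of all 12. The log2 fold change was −0.28 ± 0.0803 (SE, 95% interval −0.45 to −0.11), a mean of 0.825 times that of Control, with an edgeR adjusted p of 0.0515. Without *FRAIL1* 5 the change was −0.24 and the adjusted p 0.0377, and without *FRAIL1* 3 the adjusted p was 0.0179. Without both muscles numbered 5 the adjusted p was 0.0657, and 0.00962 with the mouse as a block. Mouse 5 had the widest difference, −0.66 on the log2 scale, against −0.28 to −0.092 in the other mice. Over 25 alternatives the adjusted p ran from 0.00372 to 0.0988, and 10 of them passed.

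*Tpm2*, the β-tropomyosin gene whose product pairs with that of *Tpm1* in fast fibers, did not pass the test. Control muscles ran from 8291 through a median of 9537 to 10180 CPM, and *FRAIL1* muscles from 8846 through 9396 to 9999. The *FRAIL1* range lay inside the Control range. The log2 fold change was 0.012 ± 0.0713 (95% interval −0.14 to 0.16, edgeR adjusted p = 0.932), and 3 of 6 mice were higher.

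The ratio of *Tpm1* to *Tpm2*, which does not depend on how libraries are scaled, separated the groups. It was 0.700 ± 0.0419 in Control muscles (0.634 to 0.736) and 0.571 ± 0.0442 in *FRAIL1* muscles (0.494 to 0.626) on the FPKM scale (SD, n = 6). Every *FRAIL1* muscle was below every Control muscle, and the ratio was lower in 6 of 6 mice. Of all other genes tested, 1.03% had a ratio to *Tpm2* that was lower without overlap, 160 of 15501. The ratio was chosen after the values were seen and is given without a test. Without both muscles numbered 5 it was 0.694 ± 0.0443 and 0.586 ± 0.0262. *Tpm1* made up 40.9 ± 1.46% of tropomyosin FPKM in Control and 36.1 ± 1.86% in *FRAIL1* muscles, and *Tpm2* 58.6 ± 1.48% and 63.3 ± 1.73%. Of raw tropomyosin counts *Tpm1* made up 60.63% and 55.62%, and *Tpm2* 38.95% and 43.86%. Which of the genes held the larger share thus depended on the length used.

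*Acta1*, the gene of the main thin-filament actin (chromosome 8, 123891758 to 123894775), did not pass the test. Control muscles ran from 30960 through a median of 34240 to 39260 CPM, and *FRAIL1* muscles from 29310 through 30480 to 35620. The groups overlapped, and Control 5 was the highest muscle. On the log2 scale the change was −0.14 ± 0.0806 (95% interval −0.31 to 0.035, edgeR adjusted p = 0.284), with 5 of 6 mice lower. With total counts in place of TMM factors, which shifted the median of all genes by 0.15, the change was 0.0068 (adjusted p = 0.942). Relative to the median of all genes it was −0.15 under either scaling. The same shift took *Tpm1* from −0.28 to −0.14, which was −0.29 relative to the median under either scaling.

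*Tpm3*, the slow tropomyosin gene and a source of cytoskeletal forms, ran from 49.5 through 55.1 to 61.5 CPM in Control and from 49.1 through 64.6 to 68.6 CPM in *FRAIL1* muscles. The groups overlapped, with 4 of 6 mice higher. The fitted log2 change was 0.14 ± 0.0905 (95% interval −0.057 to 0.33, edgeR adjusted p = 0.347). Up to 94.4% of a *Tpm3* coding transcript was at least 98% identical to *Tpm3-rs7*. Reads that match both would be left out, since the study counted uniquely mapped reads. The value is thus uncertain and may be too low.

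*Cfl2*, the muscle cofilin gene (chromosome 12, 54858815 to 54862877), had its higher value on the *FRAIL1* side in 6 of 6 mice, also short of the threshold. Control muscles ran from 274 through a median of 343 to 379.6 CPM, and *FRAIL1* muscles from 375 through 400.0 to 497.7. Control 3 lay above the lowest *FRAIL1* muscle, *FRAIL1* 1, so the groups overlapped narrowly. The log2 fold change was 0.29 ± 0.0891 (95% interval 0.10 to 0.48), a level 22.3% higher, with an edgeR adjusted p of 0.0605. Mouse 5 had the widest difference, 0.86 on the log2 scale against 0.043 to 0.36 in the other mice. Control 5 was the lowest and *FRAIL1* 5 the highest of all 12 muscles. Without *FRAIL1* 5 the change was 0.23 (adjusted p = 0.0895), and without both muscles of that mouse 0.18 (0.114, or 0.0375 with the block). Over 25 alternatives the adjusted p ran from 0.0207 to 0.115, with 4 passing.

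*Cfl1*, the cofilin gene of nonmuscle cells, was called with the mouse as a block and not without it. Control muscles ran from 94.7 through 107 to 128 CPM, and *FRAIL1* muscles from 99.97 through 131 to 157. The groups overlapped broadly, but 5 of 6 mice were higher, and *FRAIL1* 5 was the highest. The fitted log2 change was 0.22 ± 0.119 (95% interval −0.031 to 0.48, edgeR adjusted p = 0.237), and the adjusted p with the block was 0.0432. Of its merged exons, 16.5% overlap the antisense gene *Snx32*, and up to 65.0% of a *Cfl1* coding transcript was near-identical to *Gm6180* or *Snx32*, so its counts are uncertain. *Cfl1* made up 27.2 ± 4.30% of cofilin FPKM in Control and 26.1 ± 3.77% in *FRAIL1* muscles, lower in 4 of 6 mice.

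*Actb* ran from 484 through 509 to 602 CPM in Control and from 480 through 582 to 686 CPM in *FRAIL1* muscles. The groups overlapped over the whole Control range, with 4 of 6 mice higher. On the log2 scale the change was 0.12 ± 0.0913 (95% interval −0.071 to 0.32, edgeR adjusted p = 0.399). *Actg1*, the other nonmuscle actin gene, ran from 64.5 through 82.6 to 90.5 CPM and from 72.4 through 80.6 to 92.6 CPM. Its change was 0.028 ± 0.0930 (95% interval −0.17 to 0.23, adjusted p = 0.875), with the medians in the opposite order to the means. Up to 61.7% of an *Actg1* coding transcript was near-identical to *Actg-ps1* or 2 other genes, so its counts are uncertain.

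*Tpm4*, the cytoskeletal tropomyosin gene, ran from 41.6 through 45.3 to 47.8 CPM in Control and from 43.0 through 49.3 to 71.1 CPM in *FRAIL1* muscles. The highest value was that of *FRAIL1* 5, and the other muscles of both groups overlapped. The log2 fold change was 0.21 ± 0.0994 (95% interval −0.0034 to 0.42), with 5 of 6 mice higher and an edgeR adjusted p of 0.187. Without *FRAIL1* 5 it was 0.097. The antisense gene *Gm26586* covers 6.08% of its exons.

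**Figure D3:**
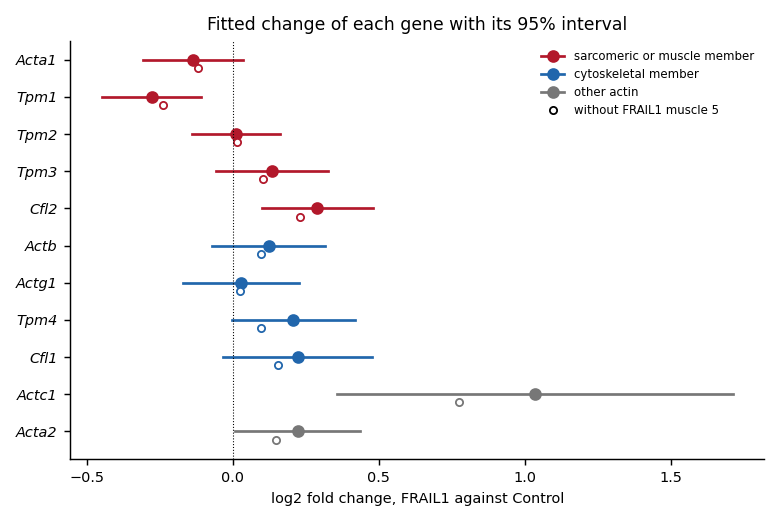
Fitted log2 fold change of *FRAIL1* against Control (x axis) with its 95% interval for the 9 members, *Actc1* and *Acta2*, with open circles for the fit without *FRAIL1* muscle 5. The intervals of *Tpm1* (−0.45 to −0.11) and *Cfl2* (0.10 to 0.48) were the ones among the members that left out 0, before adjustment for the number of genes.

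The other actin genes put these values in place. *Actc1*, the cardiac and fetal skeletal actin, ran from 639 through a median of 716 to 1270 CPM in Control and from 887 through 1379 to 3068 CPM in *FRAIL1* muscles, and the groups overlapped. Its log2 fold change was 1.04 ± 0.311, higher in 6 of 6 mice, with an edgeR adjusted p of 0.0646, and with the block it passed at 0.0107. With the block and without both muscles numbered 5 it did not pass (0.86, adjusted p = 0.0705). Without *FRAIL1* 5 alone the change was 0.77. *Acta2*, the vascular smooth muscle actin, had a change of 0.22 ± 0.0998 (adjusted p = 0.163) and *Actg2*, the enteric one, of 0.094 ± 0.296 (adjusted p = 0.869), neither of which passed. Of all actin FPKM, *Acta1* made up 96.7 ± 0.450% in Control and 93.9 ± 2.46% in *FRAIL1* muscles, lower in 6 of 6 mice. *Actc1* made up 2.16 ± 0.463% and 4.75 ± 2.40%, higher in 6 of 6. *Actb* and *Actg1* together made up 0.981 ± 0.125% and 1.13 ± 0.182%, higher in 5 of 6. The ranges of each share overlapped between the groups. Of the 3 genes with a CArG box shown above, the change was thus −0.14 for *Acta1*, 0.028 for *Actg1* and 1.04 for *Actc1*.

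**Figure D4:**
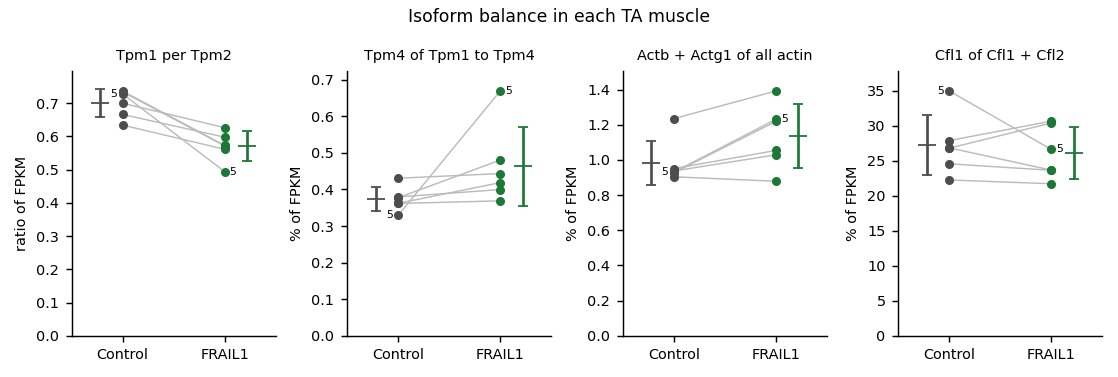
Isoform balance in each muscle: the ratio of *Tpm1* to *Tpm2* (FPKM), and *Tpm4*, the nonmuscle actins and *Cfl1* as percent of their family's FPKM, with lines joining muscles of 1 number and bars at the mean ± SD (n = 6). The first panel separates the groups (0.634 to 0.736 in Control, 0.494 to 0.626 in *FRAIL1*), and the other panels overlap.

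Across all 12 muscles, some members ran in parallel, given as Pearson's r of log2 CPM without a test, since the muscles share groups, mice and library scaling. *Actb* ran with *Cfl1* (r = 0.93) and *Tpm3* (0.89). *Acta1* ran with *Tpm1* (0.87), and *Tpm1* ran against *Cfl2* (−0.83). The muscles numbered 5 held both ends of this last relation. Control 5 was the highest muscle for *Tpm1* (16240 CPM) and the lowest for *Cfl2* (274 CPM). *FRAIL1* 5 was the lowest for *Tpm1* (10250 CPM) and the highest for *Cfl2* (498 CPM). No r given here was computed without these muscles. *Actg1* and *Actb* were nearly unrelated (0.12). Among all genes tested, those most like *Acta1* were *Pdlim7* (r = 0.959), *Cep170b* (0.929), *Nctc1* (0.910) and *Rhobtb2* (0.893). Those most like *Actb* were *Tgfbi* (0.967), *Cd48* (0.962), *Ifnar1* (0.961) and *Sdc3* (0.948). Those most like *Cfl2* were *Prkaa1* (0.980), *Cdc42* (0.951), *Ubn2* (0.951) and *Lims1* (0.950).

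Genes that act on actin filaments were taken from 9 lists by role, which held 125 genes beside the members, 121 of them tested. Of these, 4 rose and 1 fell (4.13%, beside 6.28% of all genes), with a median log2 fold change of 0.088 beside 0.0096. With the block, 15 were higher and 8 lower (19.0%, beside 14.1%). *Pak1*, a kinase that acts on the cofilin kinase LIMK, rose from 34.5 ± 1.95 to 54.8 ± 10.6 CPM (log2 fold change 0.67 ± 0.102, edgeR adjusted p = 0.00328). Without the block it was the 1 gene called among 13 cofilin kinases, phosphatases and their regulators, and with it 2 were higher. *Tmsb10*, a thymosin that binds actin monomers, rose from 52.3 ± 7.17 to 90.8 ± 22.2 CPM (0.80 ± 0.152, adjusted p = 0.0139). Without the block it was alone among 19 tested genes of monomer binding and filament turnover, and with it 2 were higher and 2 lower. *Pak1* and *Tmsb10* separated the groups without overlap, and both passed whichever muscle was left out (adjusted p at most 0.0126 and 0.0352). The count of 5 genes ranged from 2 without Control 4 or *FRAIL1* 1 to 16 without *FRAIL1* 3, with 10 without *FRAIL1* 2 and 7 without *FRAIL1* 5.

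*Arpc5l*, a subunit of the branching complex Arp2/3, was the gene that fell, from 104 ± 5.21 to 87.4 ± 7.55 CPM (−0.25 ± 0.0642, adjusted p = 0.0334). The other 8 Arp2/3 subunits had values above 0, none of which passed without the block, and 1 did with it. Of 19 tested genes of the serum response factor list, 2 rose without the block. They were *Fhl2*, a LIM-domain cofactor (0.63 ± 0.147, adjusted p = 0.0254), and *Itga5*, a fibronectin receptor subunit (0.50 ± 0.135, adjusted p = 0.0470). With the block 3 were higher and 1 lower. In that list 8 of 19 had an unadjusted p under 0.05 and DESeq2 called 4, beside 27.7% and 15.0% of all genes. These counts include the member *Tpm1*, in both, and *Acta2*, in the first. The change of *Srf*, the gene of serum response factor, was −0.19 (edgeR adjusted p = 0.152, and 0.0368 with the block), with 0 of 6 mice higher. The calls of *Arpc5l*, *Fhl2* and *Itga5* rested on all muscles being kept. *Arpc5l* was lost in 6 of 12 fits that left out 1 muscle (adjusted p up to 0.0718), *Fhl2* in 4 (up to 0.0589) and *Itga5* in 8 (up to 0.0940), with *FRAIL1* 1 among the muscles concerned for each. Without the block none passed edgeR's adjusted threshold in the lists of thin filament length, formins, crosslinkers or folding. With it 3, 0, 6 and 1 did, beside 14.1% of all genes. At an unadjusted p under 0.05 these held 6 of 15, 1 of 17, 9 of 15 and 1 of 14 tested genes, beside 27.7% of all genes. DESeq2 called 3, 0, 2 and 1, beside 15.0%. The lowest adjusted p was that of *Klhl41*, a nebulin-stabilizing Kelch protein, among thin filament length genes (0.22, adjusted p = 0.0634), of *Fmnl2* among formins (−0.23, 0.174) and of *Cct3*, a subunit of the actin-folding chaperonin, among folding genes (0.20, 0.0553). The median change was −0.10 over 15 tested thin filament length genes and 0.13 over 15 crosslinkers.

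**Figure D5:**
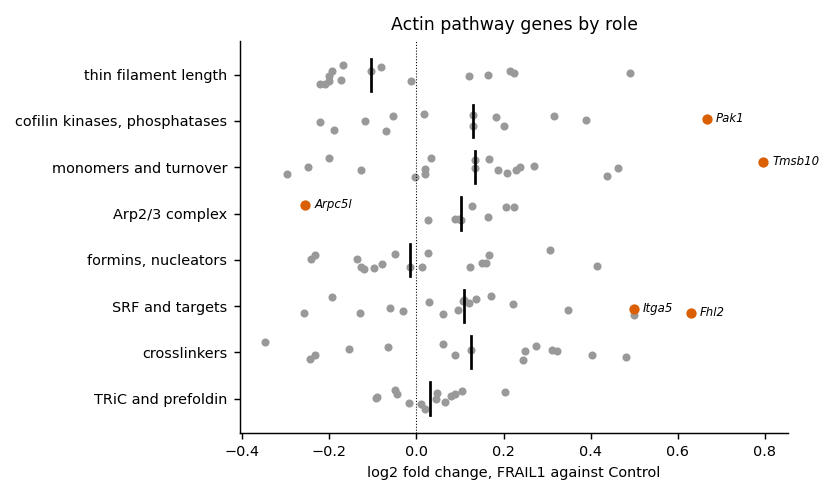
Log2 fold change of *FRAIL1* against Control (x axis) for each tested gene of 8 actin lists by role, members left out, with a black line at each list's median and the genes with an edgeR adjusted p under 0.05 in orange. *Pak1* (0.67), *Tmsb10* (0.80), *Fhl2* (0.63) and *Itga5* (0.50) lay to the right and *Arpc5l* (−0.25) to the left.

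Levels of cell type and fiber markers are given beside these values. Over all genes, edgeR called 6.28% without the block and 14.1% with it, and DESeq2 called 15.0%. Of all genes, 27.7% had an unadjusted edgeR p under 0.05. Of 10 satellite cell and regenerating fiber markers, 7 rose: *Chrna1*, *Ncam1*, *Mymk*, *Mymx*, *Myh3*, *Myog* and *Myh8*. *Pax7*, *Myf5* and *Myod1* did not pass without the block (edgeR adjusted p = 0.0634, 0.0645 and 0.0725), and all 10 did with it. The summed level was 207 to 265 CPM in Control and 422 to 1739 CPM in *FRAIL1* muscles, highest in *FRAIL1* 5. Of 10 fibroblast markers, 2 rose (*Postn* and *Col1a2*), with sums of 1292 to 2455 (median 2012) and 2544 to 6683 CPM (median 2805, highest in *FRAIL1* 5). With the block both calls were lost (adjusted p = 0.109 and 0.0642) and 1 of the 10 passed, and the list's median change of 0.59 was 0.40 without *FRAIL1* 5. Of 10 macrophage markers edgeR called none without the block and 5 with it, DESeq2 called 6, 7 had an unadjusted p under 0.05 and all 10 had values above 0, with sums of 235 to 378 and 292 to 760 CPM. Of 10 endothelial markers 3 fell (540 to 619 against 430 to 545 CPM), and of 10 fast-fiber markers 1 fell, *Ckm*. The fast-fiber sums were 169300 to 196200 (median 186300) against 121900 to 178000 CPM (median 158800, lowest in *FRAIL1* 5), and 8 of the 10 had values below 0. Of these 10 markers 3 were lower with the block, 7 had an unadjusted p under 0.05 and DESeq2 called 7. Without the block edgeR called none of the smooth muscle and Schwann cell markers, and with it 1 and 2. An unadjusted edgeR p under 0.05 was found for 3 of 10 and 3 of 8, and DESeq2 called 0 and 3. The smooth muscle sums were 4481 to 5297 and 4867 to 5851 CPM, of which *Des* alone had means of 4518 and 5025 CPM. Of these 10 smooth muscle markers 6 had values below 0, with a median change of −0.059. The Schwann cell sums were 91.2 to 161 and 77.6 to 118 CPM. No marker was at 0 in these lists. The part of these cells, or of fibers, in the values of *Acta1*, *Tpm1*, *Cfl2*, *Actb*, *Tpm3*, *Tpm4*, *Cfl1* and *Actc1* was not tested.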

How the data were processed

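TA RNA was selected for poly(A)+ and sequenced. Per the labels, the authors' processing named Trimmomatic, STAR 2.7.8a, featureCounts 2.0.1 and mm10, and deposited raw read counts per NCBI gene identifier for 12 muscles. The strand setting is not given in the sources used here. Of 27179 genes, 25275 were matched to a symbol (the others held 0.280% of counts), and 0 columns were left out. The counts were tested in edgeR 4.0.16 (R 4.3.3): filterByExpr, TMM factors, robust quasi-likelihood fit, Benjamini-Hochberg adjustment over 15502 genes, threshold 0.05. CPM used TMM-scaled library sizes, and FPKM divided CPM by the length of merged GENCODE M21 exons. Correlations used log2 CPM with a prior count of 1. DESeq2 1.42.0, limma voom 3.58.1, other scalings and filters, and leaving out muscles were alternatives. The fit was tested on simulated data with larger changes than those of the members and no mouse effect. That test does not bear on changes of the members' size.

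The methods named DESeq2 and no mouse term, so the main fit had no block. The 2 muscles of a mouse were taken to share a replicate number: their deviations from the group means correlated at 0.244, 0.158, 0.272, 0.253, 0.0512 and 0.180 (mean 0.193), against a mean of −0.0386 between numbers. Near copies were found with BLAST 2.17.0 (at least 98% identity over 100 bases), and sequences were read from GENCODE M21 and RefSeq on GRCm38. The members and the gene lists were chosen with earlier results of these data known. *Des*, *Pax7*, *Myf5* and *Myod1* were named for their place in the marker sums and calls. The other named genes were the members, the other actins, *Srf*, and the 4 genes most like *Acta1*, *Actb* and *Cfl2*. From each list the called genes were named, or else the gene with its lowest p. For the crosslinkers, the gene this rule names is not reported here. The human *FRAIL1* transcript was not analysed here.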

Additional observations from a re-analysis of the deposited data

Results flagged for a closer look

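In 48 groups of 6 muscles checked for a muscle far from the others, 4 were found, and chance finds about 1 in 20. In Control muscle 4, *Actb* and *Actg1* made up 1.24% of actin FPKM, against 0.904 to 0.951% in the other Control muscles. The same muscle had the lowest ratio of *Acta1* to *Actb*, 89.7 against 115 to 127. *Acta2* made up 0.193% of actin FPKM in Control muscle 6, against 0.139 to 0.151% in the others. *Tpm4* made up 0.669% of tropomyosin FPKM in *FRAIL1* muscle 5, against 0.369 to 0.480% in the other *FRAIL1* muscles.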

How the results depend on the processing

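Over all genes the test called 974 (687 higher, 287 lower) and 2627 with total counts only (2480 higher, 147 lower), 2186 with the replicate block, 2232 with DESeq2, 2898 with DESeq2 and the block, 1836 with limma voom, 2305 with the block and without both muscles numbered 5, and 364 to 2110 without 1 muscle. The count of members, 0, became 1 with DESeq2 size factors, upper-quartile scaling, TMM without mitochondrial and the 20 highest genes, total counts only, a minimum of 10 counts, the replicate block or limma voom, 2 with DESeq2, 3 with DESeq2 and the block and 3 with the block and without both muscles numbered 5, and was 0 to 1 without 1 muscle. The 5 called pathway genes became 30 with total counts only, 23 with the block, 15 with DESeq2, 39 with DESeq2 and the block, 15 with limma voom, 25 with the block and without both muscles numbered 5, and 2 to 16 without 1 muscle. Over all 12 muscles the block changed the call of *Cfl1* and of no other member, and without both muscles numbered 5 it changed those of *Tpm1* (adjusted p 0.0657 to 0.00962), *Cfl1* (0.339 to 0.0325) and *Cfl2* (0.114 to 0.0375). Which property of each setting moved these counts was not tested.

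The direction of *Acta1* turned with total counts only (0.0068), which moved the median of all genes by 0.15. Leaving out 1 muscle turned that of *Actg1* (−0.024 to 0.071), *Tpm2* (−0.021 to 0.037) and *Actg2* (−0.048 to 0.27). The directions of *Actb*, *Tpm1*, *Tpm3*, *Tpm4*, *Cfl1* and *Cfl2* held under all 25 alternatives. As percent of their own family's raw counts in Control and *FRAIL1*, the nonmuscle actins made up 1.69 and 1.95, *Tpm4* 0.188 and 0.244, and *Tpm3* 0.231 and 0.284. Over the length of 1 transcript, chosen after seeing the data, Control FPKM was 275 for *Actb*, 40.4 for *Actg1*, 8112 for *Tpm1*, 4309 for *Tpm2*, 48.5 for *Tpm3*, 21.2 for *Tpm4*, 46.7 for *Cfl1* and 116 for *Cfl2*. Depth was no limit for the members, whose precision was set by the spread of 6 muscles a group.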
